A study of Homo sapiens with 19 samples.

Results

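The response of HepaRG cells to an siRNA against ADAR was set against the same response in the presence of the kinase inhibitor BX795, using 11 of the 19 libraries of the study. These libraries formed 4 groups: BX795 with ADAR siRNA (2 libraries), BX795 (3 libraries), ADAR siRNA (3 libraries) and the control siRNA siNC (3 libraries). Levels are also given for 2 further groups of batch 2, interferon alpha at 1000 U per mL (2 libraries) and siNC (3 libraries). HepaRG is a human line of hepatic carcinoma origin, and all cells had been differentiated towards hepatocyte-like and biliary-like cells before transfection. Each siRNA was used at 20 nM and BX795 at 1 µM, and 1 siRNA sequence was used against ADAR. The labels do not state whether wells given BX795 without ADAR siRNA were also transfected with siNC, nor that replicates came from separate cultures, so p-values measure the spread between these libraries. The quantity examined for every gene was the interaction, the log2 fold change of BX795 with ADAR siRNA over BX795 minus the log2 fold change of ADAR siRNA over siNC. A negative interaction means a lower response with BX795, and a positive one a higher response. Both BX795 groups belonged to batch 2 and both groups without BX795 to batch 1. BX795 and batch therefore cannot be told apart in any interaction value, and no interaction can be formed within a batch, since batch 1 held no BX795 and batch 2 held no ADAR siRNA without BX795.

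ADAR is an adenosine deaminase that converts adenosine to inosine in double-stranded RNA, and this editing keeps the cell's own double-stranded RNA from being read as foreign. Unedited RNA can be bound by the sensors IFIH1 (MDA5) and RIGI, by the kinase EIF2AK2 (PKR) and by the oligoadenylate synthetases. IFIH1 and RIGI signal through MAVS to the kinases TBK1 and IKBKE, which activate the transcription factors IRF3 and IRF7. Interferons made in turn act through STAT proteins and IRF9 on a DNA motif called the interferon-stimulated response element (ISRE). BX795 inhibits TBK1 and IKBKE, and also PDK1 and several other kinases.

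Total counts per library were 26.8 and 34.2 M in BX795 with ADAR siRNA, 21.5 to 29.2 M in BX795, 47.7 to 56.3 M in ADAR siRNA and 45.8 to 77.1 M in siNC of batch 1. The batches differed in more than BX795: albumin averaged 6867 CPM (counts per 1 M counts, scaled by the trimmed mean of M-values, TMM) in siNC of batch 2 and 42423 CPM in siNC of batch 1. The 39 tested genes of a list of hepatocyte secreted and metabolic markers summed to 12150.1 and 14949 CPM in BX795 with ADAR siRNA, 19196 to 20051 CPM in BX795, 76022 to 81733 CPM in ADAR siRNA, 17534 to 21423 CPM in siNC of batch 2 and 99840 to 107615 CPM in siNC of batch 1. The hepatocyte genes ALB and TTR were present in all 11 libraries, at 3765 and 60.8 CPM or more, and so was the biliary keratin KRT19 at 58.7 CPM or more, whereas the biliary marker EPCAM had 0 counts over the 11 libraries. Some leukocyte markers were at or near 0 (PTPRC 14, CD3E 2 and MS4A1 0 counts over the 11 libraries), as were the endothelial CDH5 (6 counts) and STAB2 (17 counts). Other listed members were expressed. The 4 tested of 8 leukocyte genes summed to 27.7 to 29.4 CPM in BX795 and 45.2 to 54.7 CPM in siNC of batch 1. The 4 tested of 8 endothelial genes summed to 604 to 648 CPM in BX795 and 153 to 167 CPM in siNC of batch 1. In siNC of batch 2 these sums were 39.4 to 43.7 and 411 to 456 CPM. In bulk RNA, fewer cells of a type and less RNA per cell cannot be told apart.

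ADAR itself, at chr1:154582057-154627997 (GRCh38.p14), was lowered in both settings. It stood at 52.5 and 55.8 CPM in BX795 with ADAR siRNA, against 252, 279.9 and 272 CPM in BX795. Without BX795 it stood at 62.6, 60.6 and 70.6 CPM in ADAR siRNA, against 259.7, 261 and 264 CPM in siNC. The knockdown groups did not overlap their controls in either batch. ADAR fell by 2.31 ± 0.10 on the log2 scale with BX795 (SE; adjusted p = 1.41e-10, edgeR's quasi-likelihood test) and by 2.02 ± 0.08 without it (adjusted p = 1.19e-11). The interaction of -0.29 ± 0.12 did not pass the threshold (adjusted p = 0.266). Every library-by-library response with BX795 still lay below every one without it, as it did for 6.46% of tested genes. ADARB1, the related deaminase, had a log2 fold change of -0.18 ± 0.08 with BX795 (adjusted p = 0.17) and fell by 0.27 ± 0.07 without it (adjusted p = 0.00694), with an interaction of 0.09 ± 0.10 (adjusted p = 0.78).

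Of 23121 tested genes, 790 had an interaction at an adjusted p below 0.05, which is 3.42% of those tested. The response was higher with BX795 for 328 genes (1.42%) and lower for 462 (2%), and 271 of the 790 (1.17% of tested genes) differed by at least 2-fold. With BX795, 2201 genes were called (9.52%), 1170 higher and 1031 lower in BX795 with ADAR siRNA, and 1.66% were called with at least a 2-fold change. Under DESeq2 size factors that split was 887 higher and 1226 lower. Without BX795, 5042 genes were called (21.8%), 2539 higher and 2503 lower in ADAR siRNA, and 3.37% were called with at least a 2-fold change. Counts of list members below are to be read beside the shares over all tested genes. These were 1.42% higher and 2% lower in the interaction, 5.06% and 4.46% with BX795, and 11% and 10.8% without it. The 2 responses share no library. Genes called in both numbered 1521, which is 69.1% of the list with BX795 and 30.2% of the list without, and 1414 of them (93%) moved in the same direction. The remaining 107 moved in opposite directions: 89 fell with BX795 and rose without it, and 18 rose with BX795 and fell without it. Across all tested genes, which are not independent replicates, the log2 fold changes of the responses correlated at a Pearson r of 0.123 and a Spearman rho of 0.37. The number of interaction calls rested on single libraries: it was 384 without replicate 1 of BX795 with ADAR siRNA, and 519 without replicate 2 of ADAR siRNA.

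**Figure D1:**
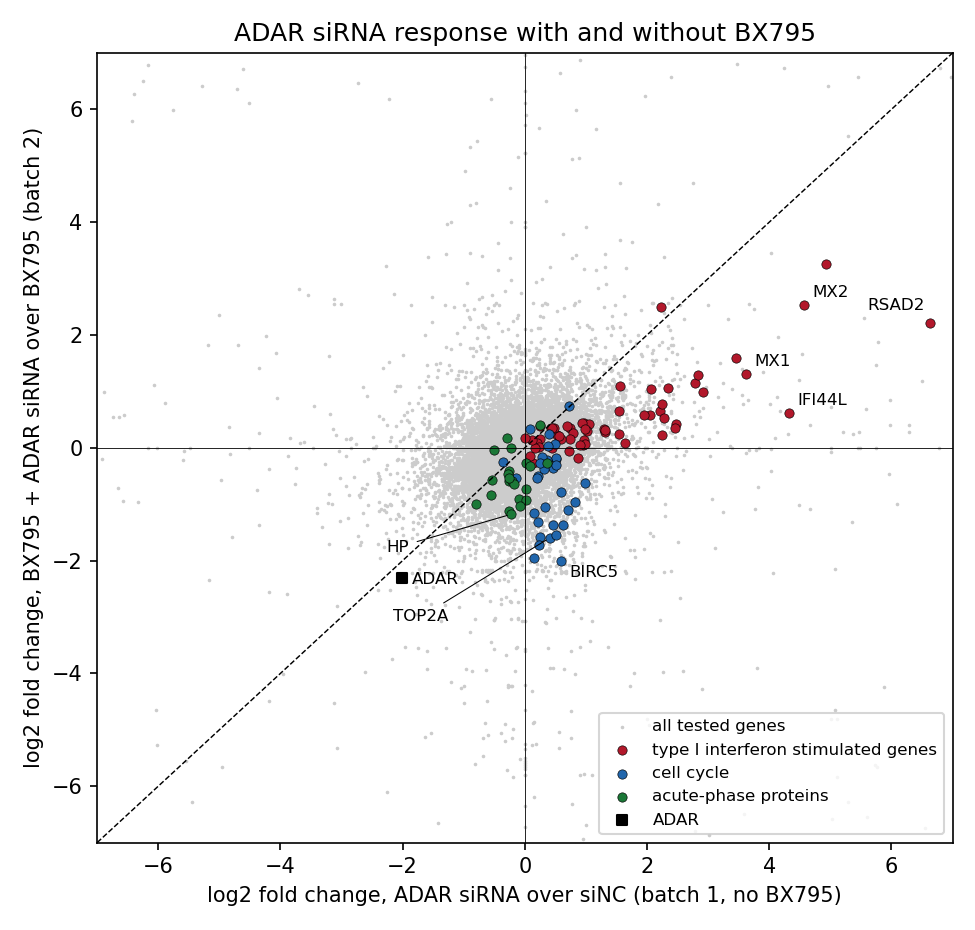
Log2 fold change after ADAR siRNA with BX795 (vertical axis, BX795 with ADAR siRNA over BX795, batch 2) against the change without BX795 (horizontal axis, ADAR siRNA over siNC, batch 1), 1 point per tested gene, with both axes cut at 7 log2 units (53 genes lie outside). Interferon stimulated genes lie to the right and mostly below the dashed line of equal responses, cell cycle genes lie mostly below zero on the vertical axis and above zero on the horizontal one, and ADAR lies near the line at -2.31 and -2.02.

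Of 58 interferon stimulated genes, 51 rose after ADAR siRNA without BX795 and 21 rose with it, and 33 had a lower response with BX795. None of the 58 had a called interaction in the other direction, against a background of 2% of tested genes called lower and 1.42% called higher. The list's median interaction was -0.85, beside 0.04 over all tested genes. With BX795, 21 members rose and 1 fell (median log2 fold change 0.35, beside 0.02 over all genes; background 5.06% higher and 4.46% lower). Without BX795, 51 rose and none fell (median 1.00, beside -0.02; background 11% higher and 10.8% lower). Of those 51, 21 also rose with BX795, and 48 had a positive fold change there. Of all 2539 genes called higher without BX795, 778 also rose with it, and 2129 had a positive fold change there. Median log2 fold changes without and with BX795 were 1.31 and 0.36 for the 51, and 0.49 and 0.26 for the 2539. For 43 of the 58, every library-by-library response with BX795 lay below every one without it; this held for 6.46% of tested genes, and the reverse order for 7.8% of tested genes and none of the 58. The count of 33 ranged between 26 and 34 when 1 library was left out, and all 33 were also lower as a difference of differences in CPM. In the alternative fits the count ranged between 25, with the replicate block, and 41.

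The median level at which these genes started was alike in the control groups of both batches, but single members differed. IFI44L averaged 5.90 CPM in BX795 and 1.55 CPM in siNC of batch 1, and IFIT1 averaged 4.78 and 11.5 CPM. The median log2 CPM over the 58 genes was 4.77 in both libraries of BX795 with ADAR siRNA, against 4.06 to 4.19 in BX795. It was 5.60 to 6.07 in ADAR siRNA, against 4.20 to 4.32 in siNC of batch 1, and siNC of batch 2 gave 4.05 to 4.38. The 2 libraries treated with interferon alpha, which were also in batch 2 and had no BX795, reached 7.10 and 7.17. These medians were above those of every ADAR siRNA library. The interferon alpha libraries had no ADAR siRNA and are not part of the interaction, in which BX795 and batch cannot be told apart.

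Promoters of several members held the ISRE core. GAAA, any 2 bases and GAAA were searched on both strands of RefSeq promoters (GRCh38.p14; 250 bases before to 50 after the start of each gene). They were found in 31 of 48 list members with a promoter entry (64.6%), in 3.02% of the promoters of tested genes and in 3.65% of all promoters in the table. Among members with a lower response with BX795 the share was 20 of 27 (74.1%), and among the other members 11 of 21 (52.4%). A match is a description of the letters, not a site shown to be used. The 250 bases upstream of 3 members whose values follow are given 5′ to 3′ on the strand of the gene, with each match in capitals: IFI44L at chr1:78620198-78620447 (plus strand), IFIT3 at chr10:89327747-89327996 (plus strand) and CXCL10 at chr4:76023498-76023747 (minus strand).

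IFI44L: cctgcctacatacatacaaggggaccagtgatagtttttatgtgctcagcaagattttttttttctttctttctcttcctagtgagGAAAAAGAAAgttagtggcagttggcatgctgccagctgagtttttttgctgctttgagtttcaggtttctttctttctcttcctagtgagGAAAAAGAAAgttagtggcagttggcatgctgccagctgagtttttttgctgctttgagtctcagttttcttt
IFIT3: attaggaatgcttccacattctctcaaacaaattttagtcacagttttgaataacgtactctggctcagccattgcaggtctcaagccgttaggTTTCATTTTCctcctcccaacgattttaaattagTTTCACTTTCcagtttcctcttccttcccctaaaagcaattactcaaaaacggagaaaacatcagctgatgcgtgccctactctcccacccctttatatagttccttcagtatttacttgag
CXCL10: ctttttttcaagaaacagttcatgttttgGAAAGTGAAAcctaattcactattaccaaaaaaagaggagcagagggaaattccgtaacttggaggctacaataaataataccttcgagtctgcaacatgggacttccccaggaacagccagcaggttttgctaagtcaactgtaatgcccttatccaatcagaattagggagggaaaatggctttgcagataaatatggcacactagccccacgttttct

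The matches begin 164 and 73 bases before the start in IFI44L, 156 and 122 bases before it in IFIT3, and 221 bases before it in CXCL10.

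IFI44L, an interferon-induced protein, had the lowest called interaction of the list. It measured 10.3 and 7.88 CPM in BX795 with ADAR siRNA, against 5.74, 6.34 and 5.63 CPM in BX795, and 24.2, 28.9 and 39.2 CPM in ADAR siRNA, against 1.29, 1.90 and 1.47 CPM in siNC of batch 1. Groups did not overlap in either pair, but the starting level was higher in BX795 than in siNC of batch 1, and siNC of batch 2 (5.49, 4.97 and 5.11 CPM) was near the BX795 level. The log2 fold change was 0.62 ± 0.20 with BX795 (adjusted p = 0.0546) and 4.33 ± 0.19 without it (adjusted p = 2.32e-11), and the interaction was -3.71 ± 0.27 (adjusted p = 6.67e-07). MX1, a GTPase that blocks viral replication, started at the same level in both batches. It measured 30.3 and 26.6 CPM in BX795 with ADAR siRNA, against 12.3, 9.88 and 12.4 CPM in BX795, and 108, 145 and 176 CPM in ADAR siRNA, against 11, 10.9 and 13.01 CPM in siNC of batch 1. It rose by 1.30 ± 0.16 with BX795 and by 3.61 ± 0.15 without it, an interaction of -2.31 ± 0.22 (adjusted p = 7.82e-06). MX2, its relative, rose by 2.53 ± 0.26 with BX795 and by 4.57 ± 0.20 without it (interaction -2.04 ± 0.37, adjusted p = 0.00319). IFIT3, of a family that binds foreign RNA and its translation machinery, measured 31.0 and 37.3 CPM in BX795 with ADAR siRNA, against 24.4, 25.2 and 26.8 CPM in BX795, and 74.8, 75.8 and 117 CPM in ADAR siRNA, against 17.9, 14.7 and 15.5 CPM in siNC. Its interaction was -2.05 ± 0.21 (adjusted p = 1.88e-05), and those of the relatives IFIT1 and IFIT2 were -1.64 ± 0.24 (adjusted p = 0.000538) and -1.56 ± 0.21 (adjusted p = 0.000251).

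Other members had no called interaction. ISG15, a ubiquitin-like modifier, rose by 1.03 ± 0.26 with BX795 and by 2.07 ± 0.22 without it, and its interaction of -1.03 ± 0.34 did not pass the threshold (adjusted p = 0.131). Without replicate 1 of BX795 with ADAR siRNA it was -1.54 and passed (adjusted p = 0.0307). IFITM1, a membrane protein that hinders viral entry, rose in both settings, by 2.49 ± 0.60 with BX795 (adjusted p = 0.0113) and by 2.23 ± 0.26 without it (adjusted p = 4.36e-06). Its interaction was 0.26 ± 0.63 (adjusted p = 0.929), from levels of 0.431 and 0.389 CPM in BX795 with ADAR siRNA, against 0.0428, 0.101 and 0.0612 CPM in BX795, so its interval is wide. TRIM22, a tripartite motif protein, was the 1 member that fell with BX795, by 0.27 ± 0.07 (adjusted p = 0.015). The antiviral enzyme RSAD2 (viperin) had the lowest interaction estimate of the list, -4.40 ± 1.503, but it was not called (adjusted p = 0.146). It was counted 8 and 10 times in BX795 with ADAR siRNA, against 0, 0 and 5 times in BX795, and 170, 156 and 244 times in ADAR siRNA, against 5, 1 and 0 times in siNC. DESeq2's Wald test called it (adjusted p = 0.000416), as did the fit without an expression filter (adjusted p = 0.00253).

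**Figure D2:**
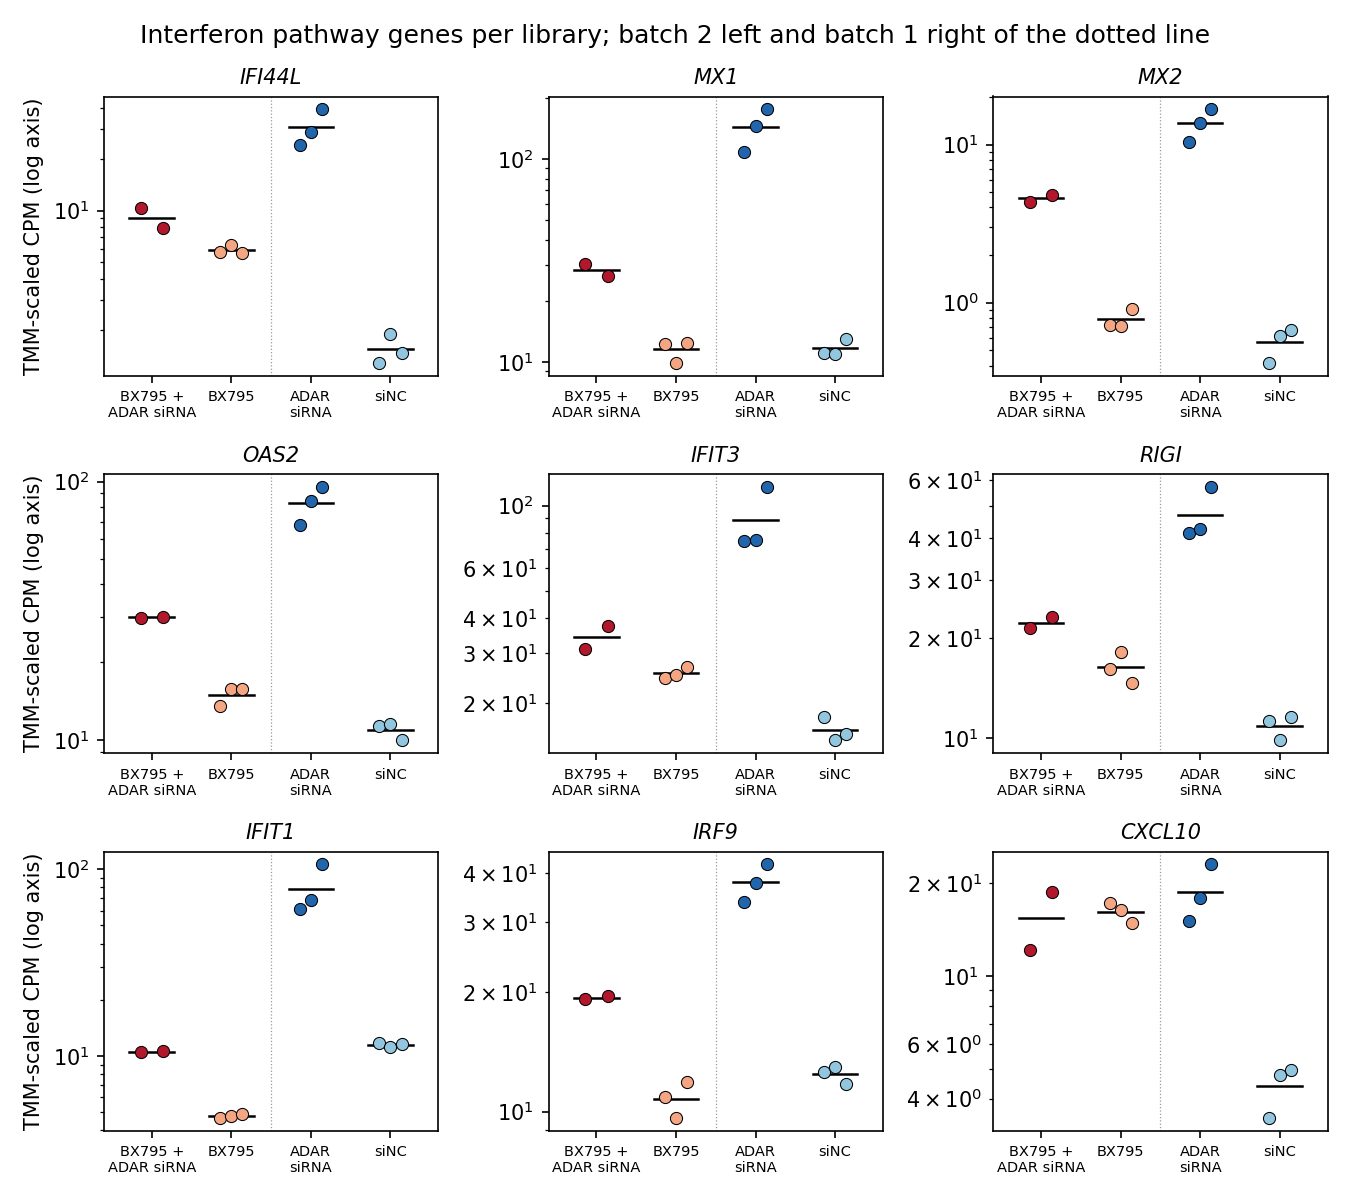
TMM-scaled CPM (log axis) of 9 interferon pathway genes in every library of the 4 groups, with BX795 groups (batch 2) left and groups without BX795 (batch 1) right of the dotted line; points are libraries and bars are group means. MX1 averages 28.4 against 11.5 CPM with BX795 and 143 against 11.6 CPM without it, and the CXCL10 libraries with BX795 overlap.

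In a list of double-stranded RNA sensors and related kinases that also holds ADAR itself, 6 of 14 tested genes had a lower response with BX795. None had a higher one (median interaction -0.43). The 6 were OAS1, OAS2, OAS3, RIGI, IFIH1 and EIF2AK2, which are themselves induced by interferon; OAS1, OAS2 and OAS3 are also on the interferon stimulated list. OAS2, a synthetase of the 2-5A messenger that activates RNase L, measured 29.7 and 30.0 CPM in BX795 with ADAR siRNA, against 13.5, 15.7 and 15.8 CPM in BX795, and 68.1, 84.2 and 95.6 CPM in ADAR siRNA, against 11.4, 11.5 and 9.97 CPM in siNC. It rose by 0.99 ± 0.12 with BX795 and by 2.92 ± 0.11 without it (interaction -1.93 ± 0.17, adjusted p = 3.3e-06). RIGI measured 21.5 and 23.1 CPM in BX795 with ADAR siRNA, against 16.2, 18.2 and 14.7 CPM in BX795, and 41.6, 42.7 and 57.3 CPM in ADAR siRNA, against 11.2, 9.85 and 11.6 CPM in siNC. Its change with BX795, 0.45 ± 0.16, was not called (adjusted p = 0.0849), it rose by 2.11 ± 0.14 without BX795, and the interaction was -1.66 ± 0.21 (adjusted p = 0.000164). IFIH1 had an interaction of -0.72 ± 0.14 (adjusted p = 0.00552). EIF2AK2 rose in both settings, by 0.39 ± 0.09 and by 0.90 ± 0.08 (interaction -0.52 ± 0.12, adjusted p = 0.0197; adjusted p = 0.063 without replicate 3 of ADAR siRNA and 0.0525 without replicate 2 of BX795 with ADAR siRNA). The sensor ZBP1 had 3 counts over the 11 libraries and was not tested.

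None of the 17 tested genes of the relay from the sensors to IRF3 had a called interaction (median -0.04). The targets of BX795 were present in all groups: TBK1 measured 23.5 and 26.6 CPM in BX795 with ADAR siRNA, against 27.9, 34.2 and 31.0 CPM in BX795, and 29.2, 26.2 and 30.0 CPM in ADAR siRNA, against 30.5, 30.9 and 31.8 CPM in siNC. IKBKE measured 21.0 and 21.8 CPM in BX795 with ADAR siRNA, against 20.7, 20.3 and 20.5 CPM in BX795. Without BX795 it measured 6.64, 7.14 and 6.11 CPM in ADAR siRNA, against 5.56, 5.61 and 5.35 CPM in siNC, so the batches differed in its level. IRF7, the interferon-induced transcription factor, rose by 1.03 ± 0.22 with BX795 and by 1.65 ± 0.18 without it, with an interaction of -0.63 ± 0.29 (adjusted p = 0.339). STING1, the adaptor of DNA sensing, rose in both, by 0.55 with BX795 (adjusted p = 0.000515) and by 0.75 without it (adjusted p = 4.25e-07).

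Transcripts of interferons themselves were too rare to test, apart from IFNE, which had no called change. Over 21 untested type I, II and III interferon genes, 7 counts were found in the 2 libraries of BX795 with ADAR siRNA, against 6 in the 3 of BX795, and 15 in the 3 of ADAR siRNA, against 2 in the 3 of siNC of batch 1. These groups held 60.9, 77.4, 154 and 181 M total counts, in that order, so raw counts cannot be compared directly between the batches. IFNL2 and IFNL3, which are near-identical copies, held 5 and 6 of the 15 counts in ADAR siRNA and 0 in each of the other 3 groups, which allows up to 3 counts per gene over each group. IFNB1 had 0 counts with BX795 and ADAR siRNA and 1 with BX795, and 2 in ADAR siRNA and 0 in siNC. These limits cover counting error only. In siNC of batch 2, the 21 genes had 8 counts among 51.4 M.

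Of 19 receptors, JAK-STAT members and interferon regulatory factors, 2 had a lower response with BX795, IRF9 among them, and none a higher one (median interaction -0.10). IRF9 is a subunit of the complex that binds the ISRE. It measured 19.2 and 19.6 CPM in BX795 with ADAR siRNA, against 10.9, 9.64 and 11.8 CPM in BX795, and 33.8, 37.7 and 42.1 CPM in ADAR siRNA, against 12.6, 12.99 and 11.7 CPM in siNC. IRF9 rose in both settings, by 0.84 ± 0.10 and by 1.61 ± 0.09 (interaction -0.76 ± 0.14, adjusted p = 0.00306). This call held in each fit that left out 1 library. Of 21 genes of MHC class I antigen presentation, none had a called interaction in the main fit (median -0.07). Up to 4 were called lower in the alternative fits. For 6 of the 21, every library-by-library response with BX795 lay below every one without it, against 6.46% of tested genes. With BX795, 1 rose (background 5.06%), and 9 rose without it (background 11%).

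Of 17 tested chemokines, 4, CXCL10, CXCL11, CCL2 and CCL5, had a lower response with BX795, and none a higher one (median interaction -0.28). All 4 had higher levels in BX795 than in siNC of either batch. CXCL10, a ligand of CXCR3 on T cells, measured 12.1 and 18.7 CPM in BX795 with ADAR siRNA, against 17.2, 16.3 and 14.8 CPM in BX795, and 15.0, 17.9 and 23.0 CPM in ADAR siRNA, against 3.46, 4.77 and 4.96 CPM in siNC of batch 1. With BX795 the groups overlapped, and its log2 fold change was -0.06 ± 0.20 (adjusted p = 0.919). Without BX795 it rose by 2.08 ± 0.18, and the interaction was -2.14 ± 0.27 (adjusted p = 0.000162). The starting level in BX795 was thus near the level that ADAR siRNA reached without BX795, while siNC of batch 2 measured 5.93, 4.72 and 3.85 CPM. CCL5, which attracts T cells, had the lowest called interaction of all named genes, -4.25 ± 0.53 (adjusted p = 0.000218). It measured 5.93 and 6.61 CPM in BX795 with ADAR siRNA, against 4.88, 3.81 and 5.48 CPM in BX795, and 0.298, 0.407 and 0.476 CPM in ADAR siRNA, against 0, 0.0247 and 0.0145 CPM in siNC. Its fold change without BX795 starts from 2 counts over 3 libraries, and as a difference of differences in CPM its response was higher with BX795, by 1.16 CPM. CCL2, which attracts monocytes, rose in both settings, by 0.82 ± 0.12 and by 2.10 ± 0.12 (interaction -1.28 ± 0.17, adjusted p = 0.000203). In CPM its rise was larger with BX795 by 42.6, from 97.8, 102 and 88.9 CPM in BX795 and 8.90, 8.99 and 9.82 CPM in siNC. CXCL11 lost its call without replicate 1 of BX795 with ADAR siRNA (interaction -2.64, adjusted p = 0.0817; -2.85 ± 0.62 and adjusted p = 0.0128 with it).

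Of 28 NF-kB targets and feedback genes, BIRC3 and PTGS2 had a lower response with BX795 and NFKBIZ a higher one (median interaction -0.08). The call of NFKBIZ, an inhibitor protein of the NF-kB family, was lost without 10 of the 11 libraries in turn (adjusted p 0.0604 to 0.233). BIRC3, an inhibitor of apoptosis, rose by 0.51 ± 0.11 with BX795 and by 1.47 ± 0.11 without it (interaction -0.96 ± 0.16, adjusted p = 0.00133). In CPM its rise was larger with BX795 by 325. The list as a whole summed to 16491 and 16874 CPM in BX795 with ADAR siRNA, 16939 to 18084 CPM in BX795, 4085 to 4126 CPM in ADAR siRNA, 11224 to 13434 CPM in siNC of batch 2 and 3453 to 3711 CPM in siNC of batch 1. Among 14 tested genes of necroptosis and inflammatory cell death, MLKL, the executor of necroptosis, had an interaction of -0.80 ± 0.19 (adjusted p = 0.0195; 0.123 without replicate 1 of BX795 with ADAR siRNA, 0.0574 without replicate 1 of siNC and 0.0522 without replicate 3 of ADAR siRNA). The pore protein GSDME had one of -0.45 ± 0.08 (adjusted p = 0.00312). Both rose without BX795, by 0.88 and 0.49, and had changes of 0.08 (adjusted p = 0.816) and 0.04 (adjusted p = 0.8) with it.

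Of 32 cell cycle genes, 16 fell after ADAR siRNA with BX795 (background 4.46%) and 20 rose without it (background 11%). In the interaction, 23 had a lower response with BX795, against 2% of tested genes, and none a higher one (median interaction -0.82). With BX795, 2 members rose (median log2 fold change -0.54). Without BX795 none fell (median 0.39), and 9 of those 20 fell with BX795. Of all 2539 genes called higher without BX795, 89 fell with it. The count of 23 ranged between 19 and 23 when 1 library was left out, and all 23 were also lower as a difference of differences in CPM. In the alternative fits the count of 23 ranged between 21 and 25. For 26 of the 32, the library-by-library responses did not overlap, against 6.46% of tested genes. The starting levels differed: the median log2 CPM of the list was 1.36 and 1.52 in BX795 with ADAR siRNA, 1.86 to 2.30 in BX795, 3.98 to 4.13 in ADAR siRNA, 2.76 to 3.13 in siNC of batch 2 and 3.72 to 3.93 in siNC of batch 1.

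TOP2A, the topoisomerase that untangles replicated chromosomes, measured 5.21 and 6.61 CPM in BX795 with ADAR siRNA, against 17.8, 19.5 and 16.7 CPM in BX795, and 60.2, 65.3 and 62.5 CPM in ADAR siRNA, against 45.9, 44.8 and 51.2 CPM in siNC. Groups did not overlap in either pair. TOP2A fell by 1.60 ± 0.12 with BX795 (adjusted p = 1.9e-07) and rose by 0.41 ± 0.09 without it (adjusted p = 0.00261), an interaction of -2.00 ± 0.15 (adjusted p = 6.67e-07). MKI67, the antigen of proliferating cells, measured 6.11 and 7.88 CPM in BX795 with ADAR siRNA, against 19.4, 18.3 and 16.9 CPM in BX795, and 87.0, 101 and 100.4 CPM in ADAR siRNA, against 67.6, 68.6 and 74.5 CPM in siNC. It fell by 1.37 ± 0.13 with BX795 and rose by 0.45 ± 0.10 without it (interaction -1.82 ± 0.16, adjusted p = 4.45e-06). BIRC5 (survivin), of the chromosomal passenger complex, measured 0.539 and 0.666 CPM in BX795 with ADAR siRNA, against 2.82, 2.43 and 2.14 CPM in BX795, and 10.2, 12.7 and 11.6 CPM in ADAR siRNA, against 7.95, 7.24 and 7.65 CPM in siNC. Its interaction of -2.60 ± 0.25 (adjusted p = 1.05e-05) was the lowest of the list. FOXM1, a transcription factor of G2 and M phase genes, fell by 1.95 ± 0.25 with BX795, and its change of 0.16 ± 0.15 without BX795 was not called (adjusted p = 0.538). CCND1, the cyclin D that opens G1, was an exception and rose in both settings, by 0.74 ± 0.06 and by 0.73 ± 0.06 (interaction 0.01 ± 0.08, adjusted p = 0.986). It measured 353 and 353 CPM in BX795 with ADAR siRNA, against 209.7, 207 and 216 CPM in BX795, and 288, 279.8 and 281 CPM in ADAR siRNA, against 164, 166 and 182 CPM in siNC. The summed CPM of the list, of which CCND1 is the largest part, was 613 and 620.1 in BX795 with ADAR siRNA, against 544 to 563 in BX795, so the sum and the median of the list differ in direction.

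The promoters of cell cycle genes often held the CCAAT box, the letters CCAAT on either strand: 19 of 23 members with an entry (82.6%), beside 36.9% of the promoters of tested genes and 35.7% of all in the table. The ISRE core was in none of the 23. The 250 bases upstream of TOP2A (chr17:40417897-40418146, minus strand, GRCh38.p14, RefSeq) are given 5′ to 3′ on the strand of the gene, with 4 matches in capitals that begin 244, 160, 93 and 53 bases before the start and all read ATTGG, the other strand of CCAAT.

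TOP2A: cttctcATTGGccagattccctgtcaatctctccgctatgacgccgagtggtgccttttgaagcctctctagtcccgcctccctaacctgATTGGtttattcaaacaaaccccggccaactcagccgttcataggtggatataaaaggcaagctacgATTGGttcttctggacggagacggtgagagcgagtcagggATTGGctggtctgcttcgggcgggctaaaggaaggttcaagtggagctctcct

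**Figure D3:**
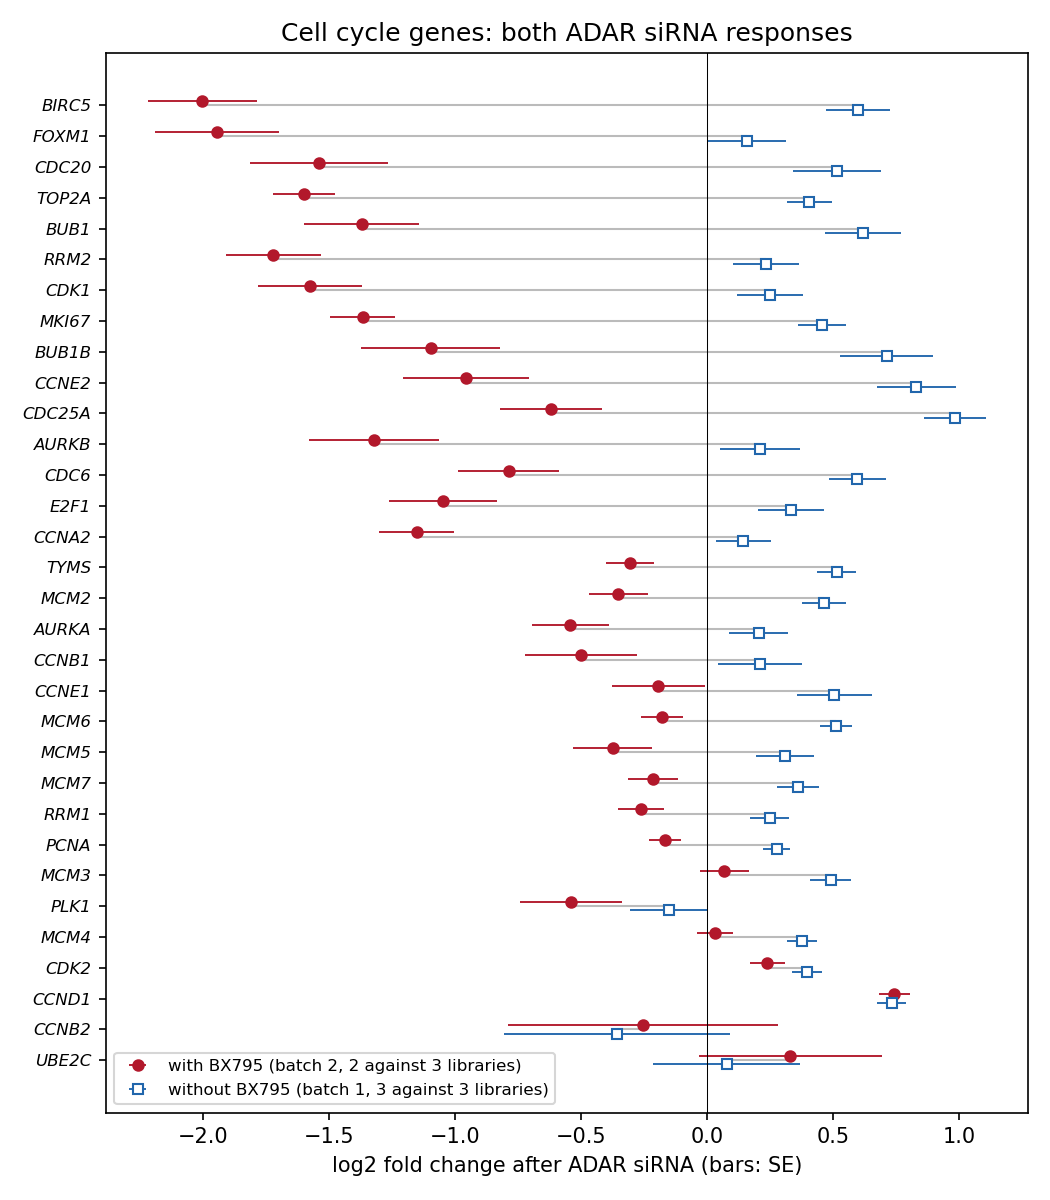
Log2 fold change after ADAR siRNA for the 32 cell cycle genes with BX795 (filled circles) and without it (open squares), with SE bars, ordered by interaction. Filled circles lie left of open squares for 29 of the 32 genes, from BIRC5 (-2.00 and 0.60) to genes without a called interaction such as CCND1 (0.74 and 0.73).

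Acute-phase proteins of the liver had a lower response with BX795 for 7 of 22 tested genes and a higher one for 1 (median interaction -0.32). With BX795, 15 fell and 1 rose (background 4.46% lower and 5.06% higher). Without it, 7 fell and 1 rose (background 10.8% lower and 11% higher). The 7 were CRP, HP, LBP, SERPINA3 and the 3 fibrinogen chains FGA, FGB and FGG, and the 1 was SAA2. HP, the haemoglobin-binding haptoglobin, measured 421 and 541 CPM in BX795 with ADAR siRNA, against 1174, 1024 and 1065 CPM in BX795, and 6354, 6847 and 6983 CPM in ADAR siRNA, against 8006, 7931 and 7586 CPM in siNC. It fell by 1.18 ± 0.10 with BX795, its change of -0.22 ± 0.08 without BX795 was not called (adjusted p = 0.0695), and the interaction was -0.96 ± 0.13 (adjusted p = 0.000218). FGA measured 201 and 256 CPM in BX795 with ADAR siRNA, against 429, 449 and 414 CPM in BX795, and 3987, 4235 and 4353 CPM in ADAR siRNA, against 4365, 4743 and 4306 CPM in siNC. The groups with BX795 did not overlap and those without it did; FGA fell by 0.91 ± 0.10 there and the interaction was -0.82 ± 0.14 (adjusted p = 0.00143). These genes started at levels far lower in batch 2, and for 4 of the 7, HP and FGA among them, the difference of differences in CPM was positive. The number of members with a lower response was 5 without replicate 1 of BX795 with ADAR siRNA and 9 without replicate 2.

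Many hepatocyte markers fell after ADAR siRNA in each setting. Of 39 hepatocyte secreted and metabolic markers, 18 fell with BX795 (background 4.46%) and 21 without it (background 10.8%), and the interaction was called lower for 6 and higher for 1 (median -0.09); 4 of these 6 were HP and the fibrinogen chains. Albumin measured 3765 and 4573 CPM in BX795 with ADAR siRNA, against 5838, 5472 and 5551 CPM in BX795, and 27636, 27900.3 and 28904 CPM in ADAR siRNA, against 41566, 43752 and 41950.1 CPM in siNC. It fell by 0.43 ± 0.09 with BX795 and by 0.59 ± 0.08 without it (interaction 0.16 ± 0.11, adjusted p = 0.596). HNF4A, a master transcription factor of hepatocytes, fell by 0.60 ± 0.10 and by 0.68 ± 0.08 (interaction 0.08 ± 0.13, adjusted p = 0.873), and none of 34 liver transcription factors and nuclear receptors had a called interaction. The nuclear receptor NR1I2 was called lower by DESeq2's Wald test (-0.69, adjusted p = 0.0454) and without an expression filter (-0.68, adjusted p = 0.0271). FABP1, the liver fatty acid binding protein, was rare in batch 2. It measured 0.287 and 0.250 CPM in BX795 with ADAR siRNA, against 1.03, 1.11 and 1.01 CPM in BX795, and 161, 169 and 162 CPM in ADAR siRNA, against 172, 193 and 179 CPM in siNC. It fell by 1.97 ± 0.32 with BX795, the interaction was -1.82 ± 0.33 (adjusted p = 0.00317), and its difference of differences in CPM was positive. For 5 of the 6 markers called lower, that difference was positive.

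Drug-metabolizing enzymes of phase I had interactions in both directions, 5 higher and 5 lower of 44 tested (median 0.13). CYP3A4, the main drug-oxidizing cytochrome P450 of the liver, measured 84.4 and 122 CPM in BX795 with ADAR siRNA, against 65.2, 81.2 and 69.3 CPM in BX795, and 1054, 1012 and 1112 CPM in ADAR siRNA, against 228, 236 and 210.0 CPM in siNC. All groups were apart, and siNC of batch 2 had 1.62, 1.74 and 1.26 CPM, so the level before knockdown differed between the batches and between BX795 and siNC. CYP3A4 rose by 0.52 ± 0.12 with BX795 and by 2.24 ± 0.11 without it (interaction -1.71 ± 0.17, adjusted p = 1.05e-05). CYP1B1, a cytochrome P450 also expressed outside the liver, measured 44.8 and 47.0 CPM in BX795 with ADAR siRNA, against 44.4, 42.7 and 41.1 CPM in BX795, and 24.3, 24.9 and 22.8 CPM in ADAR siRNA, against 41.2, 42.7 and 41.9 CPM in siNC. Its libraries with ADAR siRNA alone were the lowest of the 4 groups. It had an interaction of 0.91 ± 0.10 (adjusted p = 4.47e-05): it fell by 0.80 ± 0.07 without BX795 and had a change of 0.10 ± 0.08 with it (adjusted p = 0.475). Of 39 phase II conjugation genes, 2 had a higher and 2 a lower response; of 24 drug and bile transporters, 1 and 2. Single libraries moved these counts. Of the phase II genes, none had a higher response without either library of BX795 with ADAR siRNA. No transporter had a higher response in any fit that left out 1 library, and 0 had a lower one without replicate 1 of BX795 with ADAR siRNA and 5 without replicate 2. The bile acid gene CYP7A1 was below 1 CPM in every library of batch 2, and its interaction of 1.30 ± 0.57 was not called (adjusted p = 0.319).

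Of 13 tested biliary and progenitor markers, 2 rose and 1 fell with BX795 (background 5.06% and 4.46%). Without it, 9 rose and none fell (background 11% and 10.8%). The median interaction was -0.24, and 12 of the 13 were negative. The biliary keratin KRT19 and osteopontin rose in both settings, with no called interaction. KRT19 measured 159 and 125 CPM in BX795 with ADAR siRNA, against 73.0, 58.7 and 66.3 CPM in BX795, and 729, 761 and 721 CPM in ADAR siRNA, against 304, 304 and 339 CPM in siNC. It rose by 1.11 ± 0.14 and by 1.22 ± 0.12 (interaction -0.12 ± 0.19, adjusted p = 0.867). SPP1 (osteopontin) rose by 1.204 ± 0.11 and by 1.43 ± 0.08 (interaction -0.23 ± 0.13, adjusted p = 0.493). SOX4, another marker, was uncalled in the main fit and in 11 alternative settings. It was called lower in 6, voom among them (-0.58, adjusted p = 0.0162). Of the 13 markers, CD24 alone had a called interaction, -0.72 ± 0.15 (adjusted p = 0.00784; 0.0742 without replicate 1 of BX795 with ADAR siRNA). Of 23 mesenchymal and matrix genes, 5 had a lower response with BX795 (LUM, POSTN, DCN, FBN1 and SPARC) and none a higher one (median -0.05); POSTN rose by 0.52 ± 0.12 with BX795 and by 1.34 ± 0.10 without it. The stellate list, with 6 tested genes, summed to 45.9 and 47.8 CPM in BX795 with ADAR siRNA, 44.0 to 44.8 CPM in BX795, 38.01 to 40.1 CPM in ADAR siRNA and 27.3 to 29.4 CPM in siNC; its part in the matrix genes was not tested.

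**Figure D4:**
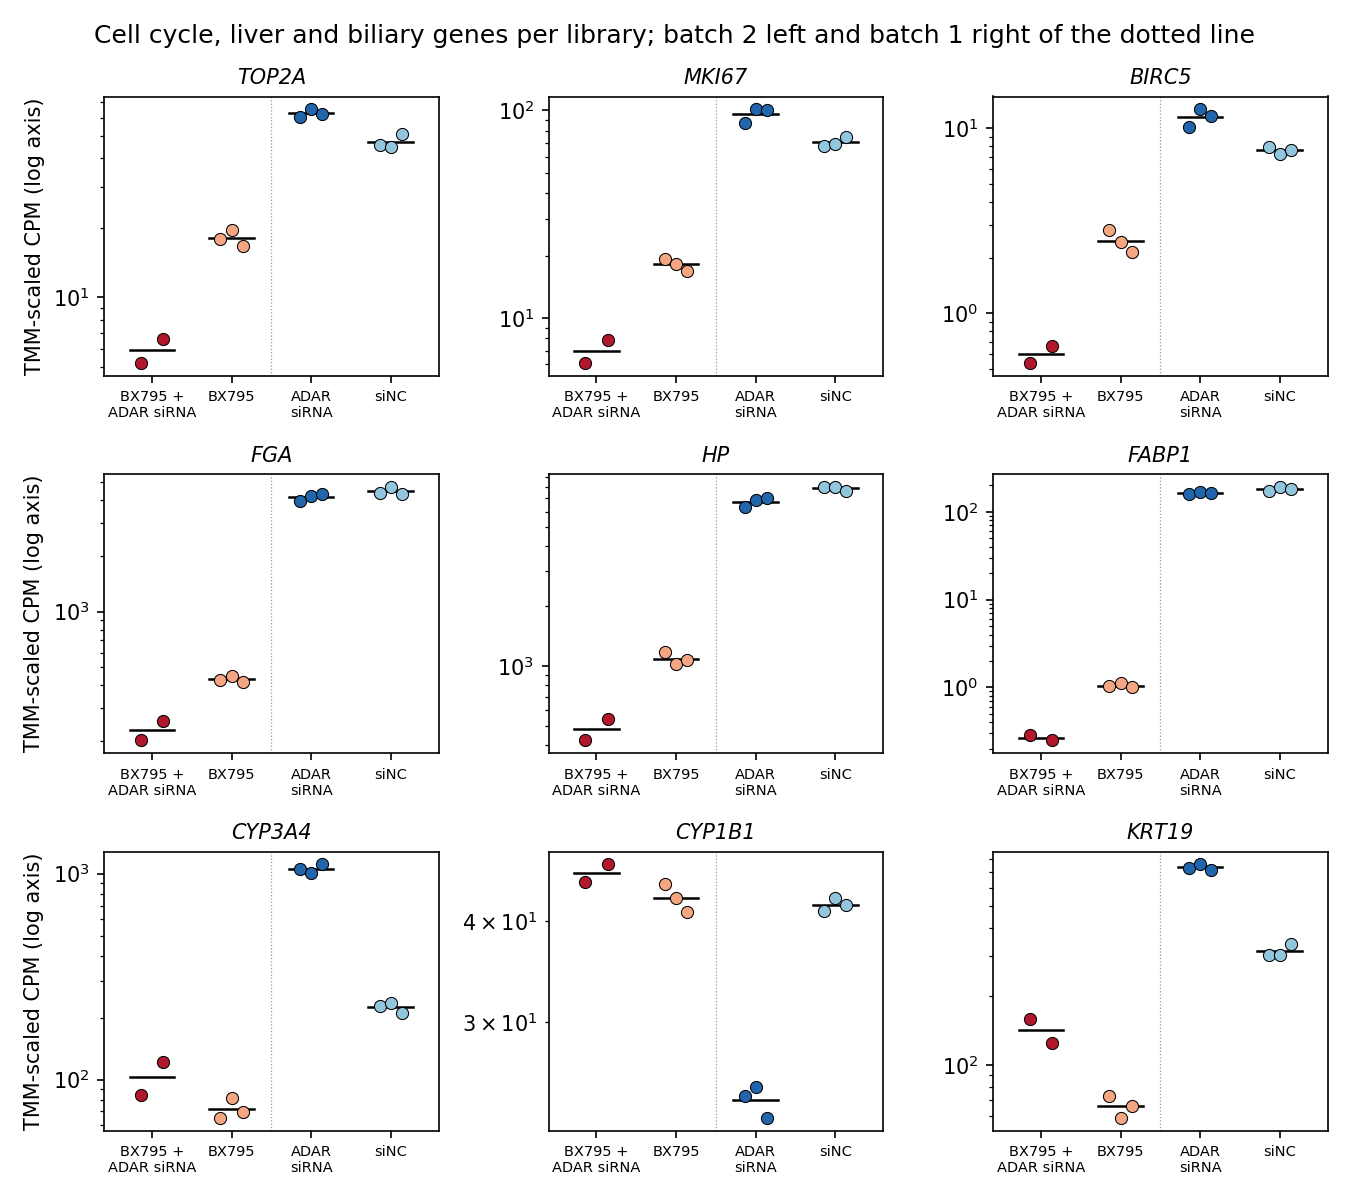
TMM-scaled CPM (log axis) of 9 cell cycle, liver and biliary genes in every library, with BX795 groups (batch 2) left and groups without BX795 (batch 1) right of the dotted line; points are libraries and bars are group means. TOP2A, MKI67 and BIRC5 are lower after ADAR siRNA left of the line and higher right of it, and CYP1B1 is lower after ADAR siRNA right of it.

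Metabolic lists with a higher response to ADAR siRNA in BX795 were small in number of calls. The background was 1.42% higher and 2% lower in the interaction, 5.06% and 4.46% with BX795, and 11% and 10.8% without it. Of 23 genes of cholesterol synthesis and uptake, DHCR7, MVK and TM7SF2 had a higher response with BX795 and none a lower one (median 0.33), a count that was 1 without replicate 1 of BX795 with ADAR siRNA; 11 rose and none fell with BX795, and 2 rose and 6 fell without it. MVK, mevalonate kinase, rose by 0.31 ± 0.09 with BX795 and fell by 0.35 ± 0.08 without it (interaction 0.66 ± 0.12, adjusted p = 0.00415; 0.0733 without replicate 1 of BX795 with ADAR siRNA). Of 27 targets of ATF4, the transcription factor of the integrated stress response, 4 had a higher response (PSAT1, PSPH, ASNS and CTH) and none a lower one (median 0.14). The count was 0 without replicate 2 of BX795 with ADAR siRNA, with 1 lower. Of 20 FOXO targets and insulin response genes, CITED2, PIK3R1 and KLF15 had a higher response (median 0.26), and the count was 1 without replicate 1 of BX795 with ADAR siRNA. PIK3R1, a regulatory subunit of phosphoinositide kinase, measured 327 and 367 CPM in BX795 with ADAR siRNA, against 358, 381 and 382 CPM in BX795, and 215, 189.7 and 203 CPM in ADAR siRNA, against 379, 381 and 366 CPM in siNC. It fell by 0.89 ± 0.08 without BX795, its change of -0.11 ± 0.09 with BX795 was not called (adjusted p = 0.572), and the interaction was 0.79 ± 0.13 (adjusted p = 0.000994). Of 21 NRF2 targets, 3 had a higher response, a count that was 0 without either library of BX795 with ADAR siRNA. Of 20 chaperones of the unfolded protein response and 13 mitochondrially encoded mRNAs, none had a called interaction.

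**Figure D5:**
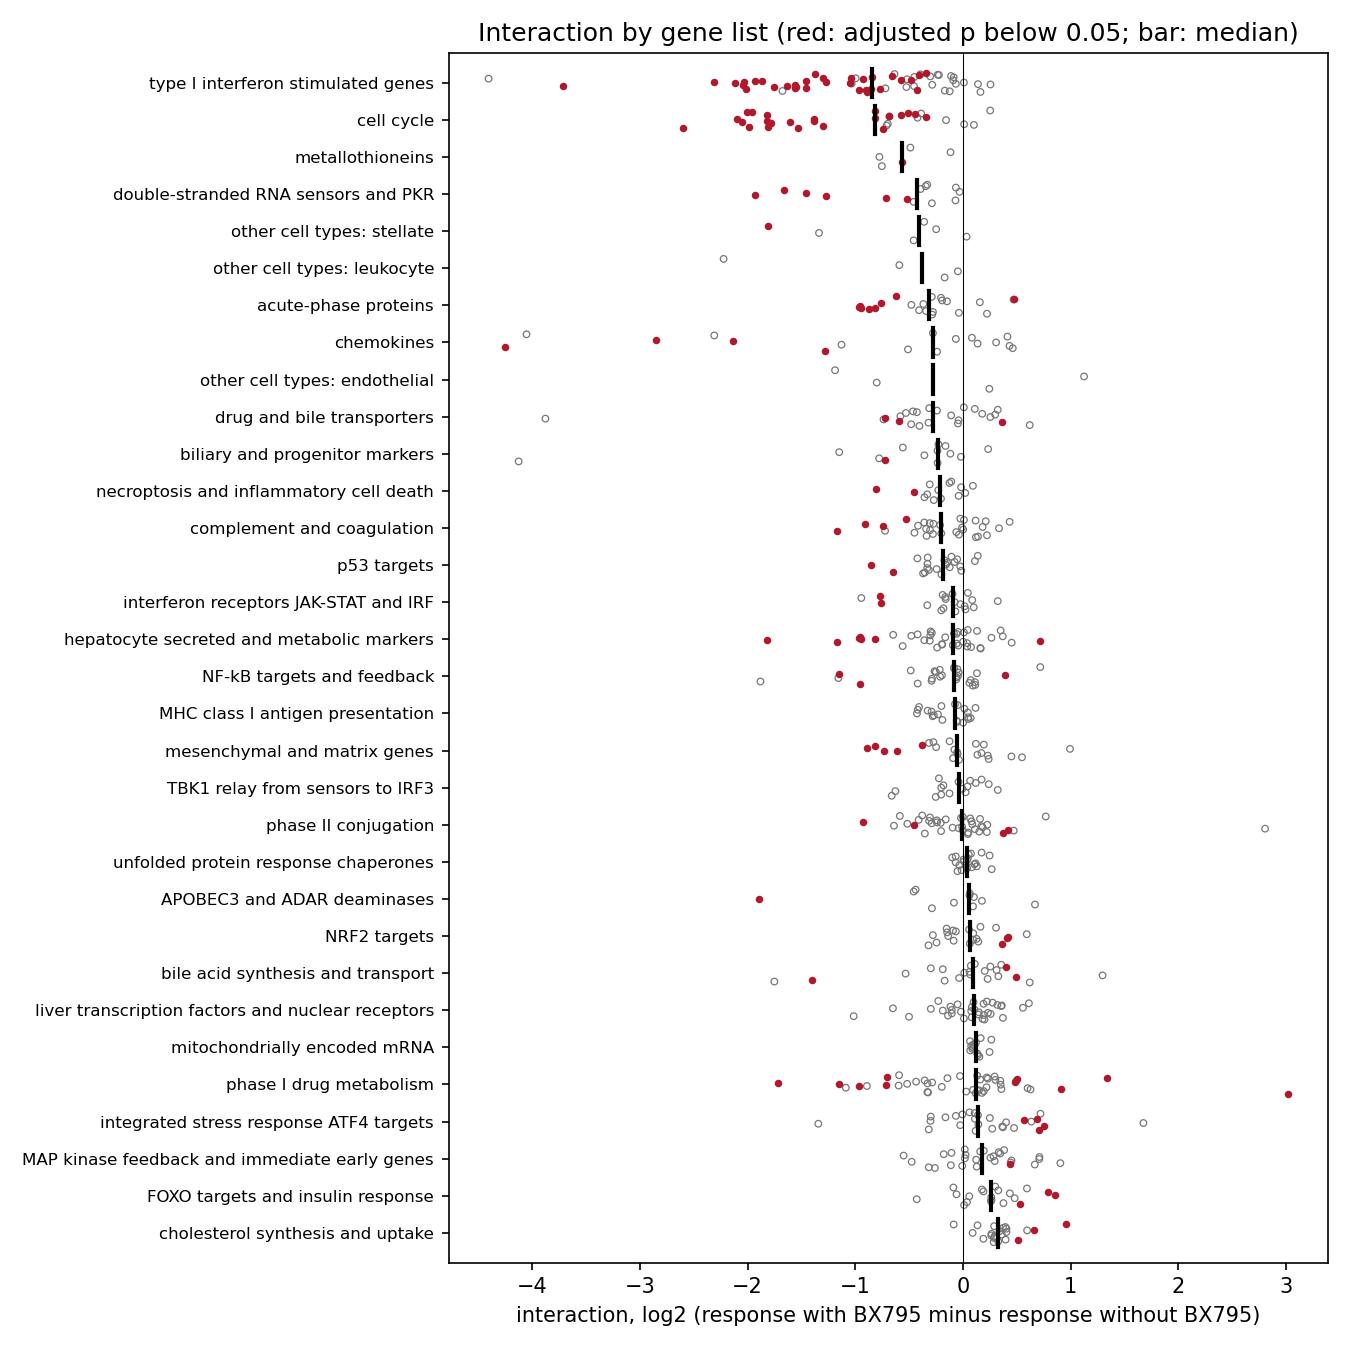
Interaction (log2, response with BX795 minus response without it) of every tested member of each gene list, 1 point per gene, red where the adjusted p is below 0.05, with a black bar at the list's median. Interferon stimulated genes (median -0.85) and cell cycle genes (-0.82) lie lowest, and cholesterol synthesis and uptake (0.33) lies highest.

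Outside the lists, IL1RL1, the receptor of interleukin 33, and MFSD2A, a lipid transporter, were called in opposite directions in the 2 settings. IL1RL1 measured 273 and 315 CPM in BX795 with ADAR siRNA, against 365, 446 and 439 CPM in BX795, and 34.5, 40.3 and 39.1 CPM in ADAR siRNA, against 6.93, 7.98 and 8.12 CPM in siNC. It fell by 0.50 ± 0.15 with BX795 (adjusted p = 0.0381) and rose by 2.31 ± 0.15 without it (interaction -2.81 ± 0.21, adjusted p = 6.67e-07), and its level in BX795 was far above that in both siNC groups. MFSD2A measured 12.6 and 13.9 CPM in BX795 with ADAR siRNA, against 7.19, 7.59 and 7.22 CPM in BX795, and 18.7, 17.0 and 19.3 CPM in ADAR siRNA, against 43.1, 45.0 and 32.7 CPM in siNC. It rose by 0.85 ± 0.12 with BX795 and fell by 1.13 ± 0.09 without it (interaction 1.98 ± 0.15, adjusted p = 6.67e-07). Both pairs of groups were apart for each gene. NUF2, a kinetochore protein, RAD54L and BLM, of homologous recombination, and CDC45, of the replicative helicase, were among the 10 lowest called interactions of genes with at least 1 CPM in a group and library responses that did not overlap, from -2.80 to -2.69. They fell with BX795, by 2.08, 2.35, 1.75 and 1.74, on the log2 scale; NUF2, BLM and CDC45 rose without it, by 0.72, 0.96 and 0.96, and RAD54L had a change of 0.41 (adjusted p = 0.114). The long noncoding RNA LINC02518 rose in both settings, by 3.16 ± 0.26 and by 1.16 ± 0.22 (interaction 2.00 ± 0.34, adjusted p = 0.00188). It measured 12.8 and 15.0 CPM in BX795 with ADAR siRNA, against 0.685, 2.06 and 1.80 CPM in BX795, and 5.76, 5.58 and 6.52 CPM in ADAR siRNA, against 3.03, 2.49 and 2.48 CPM in siNC.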

How the data were processed

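RNA of HepaRG cells was sequenced by the authors after removal of ribosomal RNA, from directional libraries and paired reads, per the labels' protocols. The deposited table gives gene-level expected counts. The submitters' processing notes name STAR, Salmon and the build GRCh38.p14, without roles or versions, and no annotation release was found in the labels. The counts, of which 94.82% lay within 0.005 of a whole number, were rounded. A table of gene names gave symbols for 61463 of 78894 Ensembl identifiers, and gene positions and promoters are those of RefSeq (GRCh38.p14).

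All genes passing filterByExpr entered TMM scaling and quasi-likelihood F tests (edgeR 4.0.16, R 4.3.3) in 1 model over all 19 libraries with 1 mean per group and 12 residual degrees of freedom, so that the shared spread also covers the groups of 2. The Benjamini-Hochberg adjustment ran over 23121 genes, and adjusted p below 0.05 was called. Levels are TMM-scaled CPM, and an SE is the size of the log2 value divided by the square root of F. The contrast was also run on counts simulated from the group means and fitted spread of these libraries. That run cannot bear on the confounding of BX795 with batch, or on whether cultures were separate, as neither was simulated. The common biological coefficient of variation was 11.2%, and lower totals in batch 2 widen the errors of rare transcripts there. SEs include the spread between libraries, while limits for counts of 0 cover counting error only. Chi-square per gene between replicates was at least 5.89, so no library was taken for another deposited again; this does not show separate cultures.

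The gene lists, tests and named genes were chosen with earlier results of these data known. Named genes were a panel of pathway genes, the 10 highest and 10 lowest called interactions with at least 1 CPM in a group and library responses that do not overlap, and the 2 members of smallest p of each list with a call; FABP1, BIRC5, FOXM1, CCND1, IFITM1, TRIM22, STING1, CYP1B1, POSTN and others named as the members behind a count were singled out after their values were seen. Alternatives were DESeq2 1.42.0 size factors and Wald test, no expression filter, the compared groups alone, voom with sample quality weights (limma 3.58.1), a replicate block, differences in CPM, and leaving out each library. A few named genes are not reported here. Libraries of ADARB1 siRNA entered the fit and are otherwise not used here.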

Additional observations from a re-analysis of the deposited data

Results flagged for a closer look

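The ADAR siRNA response differed with and without BX795 by the interaction test for 790 genes, of which 20 are given here by their interaction (log2, with minus without BX795). They are the highest and lowest among called genes with a symbol, at least 1 CPM in a group and library responses that did not overlap; other called genes had larger values. BX795 and batch cannot be told apart in these values.

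The 10 highest were ADH1A (3.01), LINC02518 (2.00), MFSD2A (1.98), RASL10B (1.95), LRRTM3 (1.95), WNT6 (1.90), INMT (1.88), OR7C1 (1.83), DISP3 (1.74) and HS6ST3 (1.45). ADH1A rests on 15 and 9 counts in BX795 with ADAR siRNA, against 0, 1 and 5 in BX795, and is a paralog of other alcohol dehydrogenases. It lost its call without replicate 1 of BX795 with ADAR siRNA (adjusted p = 0.336), replicate 1 of BX795 (0.0688) or replicate 2 of BX795 (0.0965). Without replicate 1 of BX795 with ADAR siRNA, INMT (adjusted p = 0.0525), DISP3 (0.0656) and HS6ST3 (0.0514; 0.0806 without replicate 2 of that group) lost theirs as well. LRRTM3 and WNT6 each lost theirs in 8 of the 11 fits that left out 1 library, at adjusted p of up to 0.0992 and 0.339. The change of RASL10B with BX795, -0.31, was not called (adjusted p = 0.211), and without BX795 it fell by 2.26; as a difference in CPM its interaction was -0.194.

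The 10 lowest were CCL5 (-4.25), IFI44L (-3.71), APOA4 (-3.29), CXCL11 (-2.85), IL1RL1 (-2.81), NUF2 (-2.80), H3C15 (-2.78), RAD54L (-2.76), BLM (-2.71) and CDC45 (-2.69). APOA4 rests on 1 and 3 counts in BX795 with ADAR siRNA, against 2, 3 and 6 in BX795, and lost its call without replicate 3 of BX795 (adjusted p = 0.103) or replicate 1 of BX795 with ADAR siRNA (0.0514). The histone gene H3C15, which has near-identical copies, had 0 and 161 counts in the 2 libraries of BX795 with ADAR siRNA, and DESeq2's Wald test did not call it (adjusted p = 0.221). Its call was lost in 7 of the 11 fits that left out 1 library.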

How the results depend on the processing

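The 790 interaction calls became 459 with the replicate block and 384 to 744 when 1 library was left out; the 2201 calls with BX795 became 1058 in the compared groups alone, 1414 with the replicate block and 1045 to 1944 without 1 library; the 5042 calls without BX795 became 8112 in the compared groups alone, 8252 with voom and 3708 to 4259 without 1 library. Other settings gave more interaction calls: 1117 with DESeq2's Wald test, 1082 without an expression filter, 1056 in the compared groups alone and 990 with voom. The calls with BX795 became 2621 with DESeq2's Wald test and 2303 without an expression filter. Among the calls with BX795 the share that were higher was 53.2%, against 42% under DESeq2 size factors and 37% without replicate 3 of BX795. The share of interaction calls that were higher was 41.5%, against 25.9% without replicate 3 of BX795. Whether replicate numbers pair the samples was not settled. Same-numbered libraries correlated at 0.0644, 0.13 and 0.047 in batch 1, and differently numbered ones at -0.0945 to 0.0396. In batch 2 the values were 0.121 and 0.119, against -0.121 to 0.0122. For each library with ADAR siRNA the same-numbered control gave the highest value. The batch 2 values mirror each other because a group of 2 libraries deviates from its mean in opposite directions.

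As a difference of differences in CPM the sign turned for these genes with a called interaction: CCL2 (42.6), CCL5 (1.16), RASL10B (-0.194), BIRC3 (325), SULT2A1 (81.1), ABCG8 (32.3), HP (506), FGA (77.4), FGG (12.9), CRP (4.91), FABP1 (17.0), F11 (12.5) and C8A (32.4). It also turned for ADARB1 (-0.0767) and IFITM1 (-0.845), which had no call. Of all 462 genes called lower, 32 turned, and of the 328 called higher, 10. Values without a call changed sign when 1 library was left out: ADARB1 ranged between -0.0098 (without replicate 1 of BX795) and 0.144, HNF4A between -0.0427 (without replicate 2 of BX795 with ADAR siRNA; -0.0081 without replicate 1 of BX795) and 0.112, ALB between -0.0368 and 0.249, KRT19 between -0.35 and 1e-04, and NR1I3 between -3.83 and 1.65 (-0.314 with voom). The cause of these changes was not tested. RSAD2 had 10 counts or fewer per library in both BX795 groups, and its interaction of -4.40 ranged between -6.10 and -0.19 (without replicate 3 of BX795) when 1 library was left out.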

Other observations

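Genes of 3 further lists had lower responses with BX795. BTG2, an antiproliferative p53 target, rose by 0.43 ± 0.06 without BX795, its change of -0.22 ± 0.07 with BX795 was not called (adjusted p = 0.0684), and the interaction was -0.65 ± 0.10 (adjusted p = 0.000541, edgeR). Of 22 p53 targets tested, GDF15 was the other call (interaction -0.86 ± 0.22, adjusted p = 0.0336), and it was lost in 8 of the 11 fits that left out 1 library (adjusted p 0.0531 to 0.0909). MT1E, a metal-binding metallothionein, was called among 5 (interaction -0.57 ± 0.11, adjusted p = 0.00565). Of 30 complement and coagulation genes, 4 had a lower response, C8A, F3 and F11 among them, and none a higher one. For 3 of these 4 the difference of differences in CPM was positive, and the count was 2 without replicate 1 of BX795 with ADAR siRNA and 6 without replicate 2.

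Of 11 deaminase genes tested, the cytidine deaminase APOBEC3B had the 1 called interaction, -1.89 ± 0.40 (adjusted p = 0.0102; 0.0532 without replicate 2 of BX795 with ADAR siRNA).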
